A study of Mus musculus with 2 samples.

Results

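The macrophage compartment of the liver was described through 37 genes, listed by symbol, that mark Kupffer cells, macrophages recruited from blood monocytes, and myeloid cells in general. All 37 symbols were present among the 53241 distinct symbols deposited for a control and an iFIRKO liver, with 1 library of each. The iFIRKO mice were male and carried Adipoq-CreERT2 together with Insr flox/flox, so that tamoxifen deletes the insulin receptor gene in adipocytes. The control was a male mouse or mice labelled WT, whereas the study's methods describe the controls as IR flox/flox, and a Cre transgene is named for the iFIRKO animals alone. Mice of both genotypes were 7 weeks old, were given tamoxifen (100 mg/kg, 5 days in a row), and were analysed 3 days after the final dose. The adiponectin promoter drives the recombinase in fat cells, so liver cells are not its target. The sources do not state whether each library holds RNA of 1 mouse or of several.

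Kupffer cells are the resident macrophages of the liver, lodged in the sinusoids, where they take up bacteria, aged blood cells, lipids and cell debris from portal blood. They renew themselves locally under steady conditions, depend on signalling through the receptor encoded by *Csf1r*, and carry a set of surface lectins and scavenger receptors that freshly recruited macrophages lack or gain late. Macrophages derived from monocytes enter the liver during injury or steatosis and are marked by integrin and chemokine receptor genes or, in lipid-rich tissue, by *Trem2* and *Gpnmb*.

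Values are linear normalized reads, obtained from the deposited log2 values. A log2 fold change compares iFIRKO with control after 4.18 normalized reads were added to both, and the interval beside it is a 95% exact Clopper-Pearson interval that covers counting error only. Genes reaching 41.8 normalized reads (1 CPM, where CPM scales reads to a common library total) in 1 or both libraries were compared, and a gene was called lower or higher past the 1.5-fold limit used in the study. With 1 library per genotype there was no replicate check and no p-value, and every difference is between these 2 libraries. The libraries held about 42003900 (control) and 41579600 (iFIRKO) normalized reads, an estimated 21138292 and 20652476 read pairs. *Alb* took 9.92% of normalized reads in control and 9.49% in iFIRKO, as a liver sample would show. *Insr* had 4246 and 3692 normalized reads, which says nothing about its deletion in adipocytes.

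Macrophage genes were lower in the iFIRKO liver with few exceptions. Of the 37 genes, 34 had fewer normalized reads in iFIRKO than in control, as did 48.7% of all genes compared. The exceptions were *Trem2*, *Gpnmb* and *Ms4a7*, all near or below the minimum level. The 35 genes at or above the minimum had a median log2 fold change of -0.62, against 0.01 over all 13390 genes compared. Of these 35, 22 were called lower, where the background was 7.29% of all genes compared, and 1 was called higher, where the background was 4.46%. At a stricter limit of 2-fold, 2 of the 35 were lower (background 1.99%) and 0 were higher (background 1.56%). Summed over the 37 genes, normalized reads were 71603 (control) and 46642 (iFIRKO), a log2 ratio of -0.62 (interval -0.64 to -0.59). In a bulk library, fewer macrophages and less of these transcripts per macrophage cannot be told apart.

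**Figure D1:**
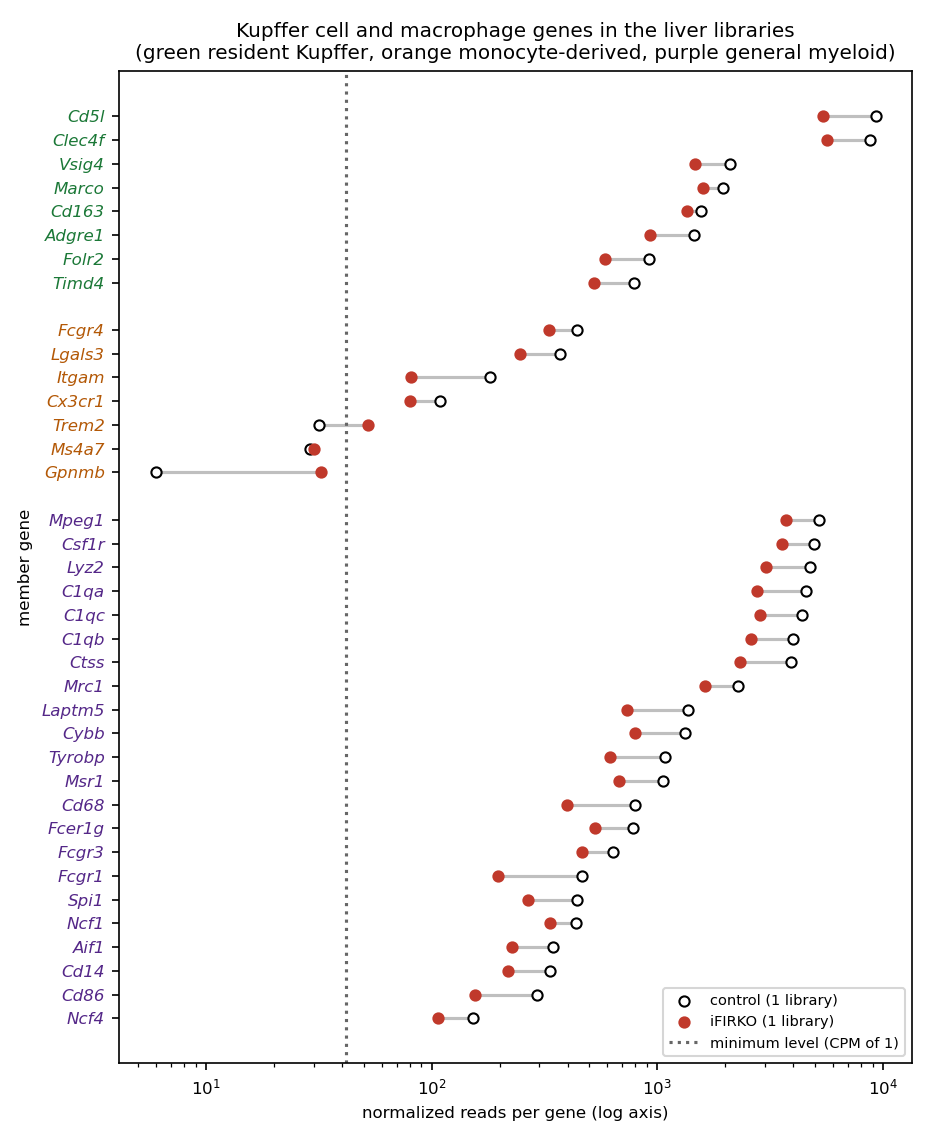
Normalized reads per gene (log axis) of the 37 macrophage genes in the control library (open circles) and the iFIRKO library (red circles), by group. The iFIRKO circle lies to the left for 34 genes and to the right for *Trem2*, *Ms4a7* and *Gpnmb*, of which *Trem2* alone crosses the dotted line at the minimum level of 41.8 normalized reads.

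The differences were moderate in size but, outside the monocyte-derived group, lay close together. Of the 35 genes, 34 had a log2 fold change at or under -0.19, the lower quartile of all genes compared, and 26 were at or under the lowest decile (-0.48). The standard deviation of the log2 fold change was 0.31 over these macrophage genes and 0.41 over all genes compared. By group it was 0.20 for resident Kupffer, 0.20 for general myeloid and 0.65 for monocyte-derived genes. Of the 35 genes, 15 lay within 0.1 log2 units of the 1.5-fold limit, so the count of 22 moves with it.

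Genes called lower were found at all levels of abundance. Among genes with a mean level of 50 CPM or more (2090 normalized reads), 7 of 9 macrophage genes were called lower, against 3.21% of 2712 genes at that level, and 0 of 9 were higher (background 2.8%). Between 10 and 50 CPM, 8 of 14 were lower (background 3.05%) and 0 were higher (background 1.77%). Below 10 CPM, where counting error widens the spread of all genes, 7 of 12 were lower (background 13.7%) and 1 was higher (background 8.04%).

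**Figure D2:**
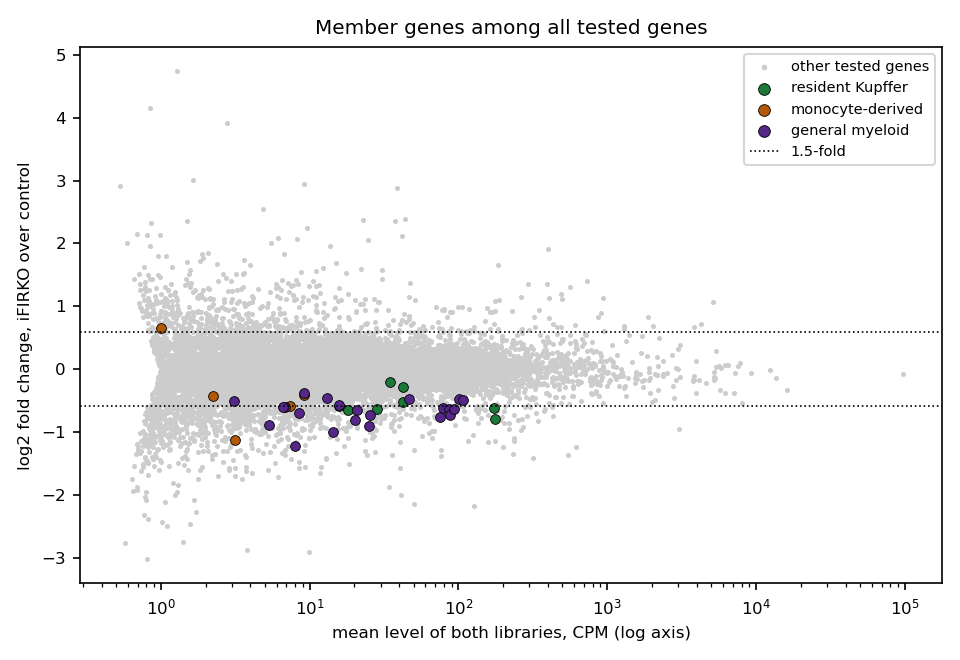
Log2 fold change (iFIRKO over control) against the mean level in CPM (log axis) for the 13390 genes compared, with the macrophage genes coloured by group and dotted lines at 1.5-fold. Apart from *Trem2* at the low end, the coloured genes lie below 0 across the whole range of levels.

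Resident Kupffer genes came first. All 8 had fewer normalized reads in iFIRKO, with counting intervals entirely below 0, and 5 were called lower (background 7.29%). Their median log2 fold change was -0.60, and their sum was 26835 (control) and 17549 (iFIRKO) normalized reads, a log2 ratio of -0.61 (interval -0.65 to -0.57). *Cd5l*, which encodes a secreted protein that protects macrophages from apoptosis, had 9323 (control) and 5401 (iFIRKO) normalized reads, the largest difference in this group at -0.79 (interval -0.86 to -0.72). *Clec4f*, a C-type lectin gene restricted to Kupffer cells in the mouse, had 8728 and 5677 normalized reads, a log2 fold change of -0.62 (interval -0.69 to -0.55). Together these abundant transcripts carried most of the resident signal, and each was more than 30% lower. *Adgre1*, the classical pan-macrophage adhesion receptor gene of the mouse, had 1454 (control) and 932.6 (iFIRKO) normalized reads (-0.64). *Folr2*, which encodes folate receptor beta, had 921.1 and 584.8 (-0.65). *Timd4*, a phosphatidylserine receptor gene that serves uptake of apoptotic cells and marks long-lived resident macrophages, had 790.3 and 525.3 normalized reads and passed the limit only just, at -0.59.

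The remaining resident genes, which also encode uptake receptors, fell short of the 1.5-fold limit. *Vsig4*, the complement receptor gene that lets Kupffer cells capture opsonized bacteria, had 2106 (control) and 1467 (iFIRKO) normalized reads, a log2 fold change of -0.52 (interval -0.66 to -0.39). *Marco*, a class A scavenger receptor gene, had 1955 and 1602 normalized reads and a log2 fold change of -0.29 (interval -0.42 to -0.15). *Cd163*, which encodes the scavenger receptor for haemoglobin bound to haptoglobin, had 1558 and 1360 normalized reads, a log2 fold change of -0.20 (interval -0.35 to -0.05). The intervals of *Marco* and *Cd163* lay above those of *Cd5l*, *Clec4f* and *Adgre1* without overlap, so the resident genes did not move as a single block within counting error.

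**Figure D3:**
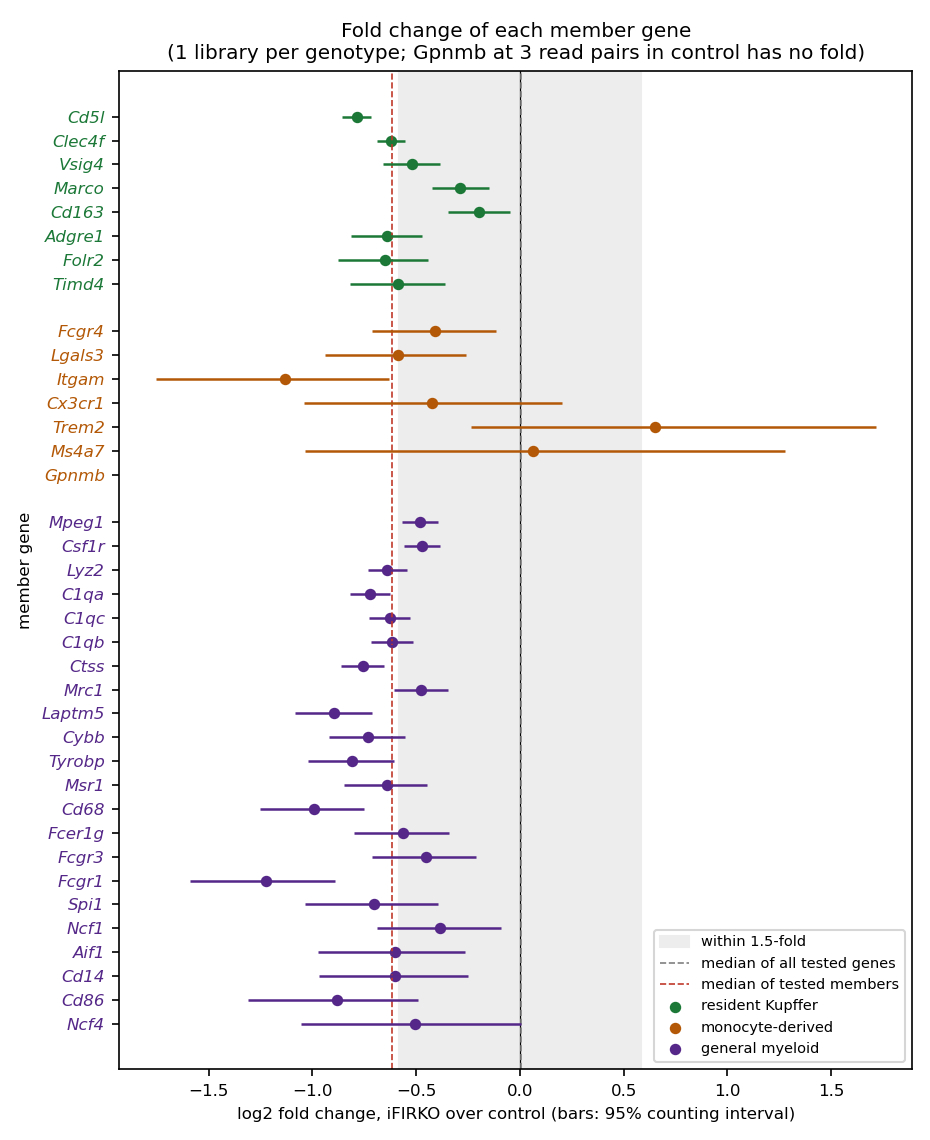
Log2 fold change (iFIRKO over control) of each macrophage gene with its 95% counting interval, by group, and the range within 1.5-fold shaded. The median of the 35 genes compared (red dashes) is -0.62 and that of all genes compared (grey dashes) is 0.01, while *Marco*, *Cd163*, *Ms4a7* and *Trem2* lie to the right of the other genes and *Fcgr1* and *Itgam* farthest to the left.

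Genes linked to monocyte-derived macrophages had fewer reads than the resident genes, and they split. The 7 genes summed to 1167 (control) and 850.7 (iFIRKO) normalized reads, a log2 ratio of -0.46 (interval -0.64 to -0.27), against 26835 and 17549 for the resident genes. Without the genes that neutrophils or sinusoidal cells also express, the log2 ratio was 0.15 and the median 0.11. That ratio rests on *Cx3cr1*, *Ms4a7*, *Trem2* and *Gpnmb*, all with few reads, and no interval was computed for it. The median rests on *Cx3cr1* and *Trem2*, whose intervals both include no difference, so no direction can be read from it. Of the 7 genes, 5 reached the minimum level, with a median of -0.42. Of these 5, 2 were called lower (background 7.29%) and 1 higher (background 4.46%). *Itgam*, the integrin alpha M gene of monocytes, recruited macrophages and neutrophils, had 182.1 and 80.8 normalized reads, a log2 fold change of -1.13 (interval -1.76 to -0.63). *Lgals3*, the galectin-3 gene, which bile duct cells also express, had 370.8 and 245.4 (-0.59, interval -0.94 to -0.26). *Fcgr4*, an IgG receptor gene of patrolling monocytes and macrophages, had 439.1 (control) and 330.0 (iFIRKO) normalized reads (-0.41, interval -0.71 to -0.11). For *Cx3cr1*, the fractalkine receptor gene, 108.3 and 79.7 normalized reads gave an interval of -1.04 to 0.20, so no difference was detectable at this depth.

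*Trem2* and *Gpnmb*, genes of lipid-associated macrophages, had more reads in iFIRKO, but very few in either library. *Gpnmb*, which encodes a transmembrane glycoprotein of lipid-laden macrophages, had 5.96 (control) and 32.2 (iFIRKO) normalized reads. These values correspond to 3 read pairs (exact Poisson interval 0.619 to 8.77) and 16 read pairs (9.15 to 26.0), and these intervals do not overlap. The gene stayed below the minimum level in both libraries and was given no fold change. *Trem2*, a receptor gene for lipids and apoptotic cells that signals through the product of *Tyrobp*, had 31.8 and 52.3 normalized reads, or 16 and 26 read pairs. Its log2 fold change of 0.65 passed the 1.5-fold limit, but the interval of -0.23 to 1.72 includes no difference. The call was lost with a pseudocount of 1 CPM (0.35), with the minimum required in both libraries and with a minimum of 5 CPM. *Ms4a7*, a membrane protein gene of macrophages, had 28.8 and 30.2 normalized reads, with no difference detectable at 14 and 15 read pairs.

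The general myeloid genes were lower throughout. All 22 had fewer normalized reads in iFIRKO, and the median log2 fold change was -0.63. Of the 22, 15 were called lower (background 7.29%) and 0 higher (background 4.46%). Their sum was 43601 (control) and 28243 (iFIRKO) normalized reads, a log2 ratio of -0.63 (interval -0.66 to -0.60), close to that of the resident genes. *Csf1r*, the receptor gene for the growth factors that keep macrophages alive, had 4938 and 3561 normalized reads, a log2 fold change of -0.47 (interval -0.56 to -0.38). Of its ligands, *Csf1* had 1320 and 1065 (-0.31, interval -0.48 to -0.14), and *Il34*, with 61.6 and 59.5, showed no detectable difference (interval -0.80 to 0.74). *Spi1*, which encodes the myeloid master transcription factor PU.1, had 438.5 (control) and 267.8 (iFIRKO) normalized reads, a log2 fold change of -0.70 (interval -1.04 to -0.40). The receptor was thus lowered less than the factor in point estimate, although their intervals overlapped.

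PU.1 binds purine-rich DNA around the letters GAGGAA, and the promoters of the macrophage genes were searched for them. RefSeq windows on GRCm38.p6, from 250 bases before to 50 bases after the gene start, were matched for 28 of the 37 genes (31 windows), without *Adgre1*, *Csf1r*, *Spi1*, *C1qa*, *Tyrobp*, *Cd86*, *Cd14*, *Msr1* and *Ncf4*. On either strand, GAGGAA was found in 18 of the 31 windows (58.1%) and in 28.3% of all 32851 windows. The longer form GAGGAAGT, which contains it, was found in 3 of the 31 (9.68%) and in 3.20% of all windows. These matches describe letters and not bound sites. The stretches below are shown because they hold the long form, or because they belong to the gene with the most reads (*Cd5l*) or to the 4 with the largest fold changes (*Fcgr1*, *Itgam*, *Cd68* and *Laptm5*), with *Trem2* as a gene that was not lower. Each is written 5′ to 3′ along the gene's strand with the match in capitals, as TTCCTC or ACTTCCTC where it lies on the opposite strand.
*Ctss* (chr3:95526773-95526802, forward strand): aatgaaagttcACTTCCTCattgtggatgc
*C1qc* (chr4:136893091-136893120, reverse strand): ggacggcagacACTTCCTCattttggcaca
*Fcgr4* (chr1:171018891-171018920, forward strand): taaggctatttACTTCCTCtcttctagtca
*Fcgr1* (chr3:96294008-96294035, reverse strand): tggcaacttccTTCCTCttttctaatct
*Laptm5* (chr4:130913267-130913294, forward strand): cagcctgtggcTTCCTCttttttgttct
*Cd5l* (chr3:87357804-87357831, forward strand): agtcacctcccTTCCTCtggccatgctg
*Cd68* (chr11:69666125-69666152, reverse strand): aggcttttcatTTCCTCttccaagagaa
*Itgam* (chr7:128062614-128062641, forward strand): ctcatagctttTTCCTCatacttctctg
*Trem2* (chr17:48346350-48346377, forward strand): gcctcctttccTTCCTCcctccctcacg

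In these stretches the match began 2 bases before the annotated start of *Ctss*, 24 before that of *Fcgr4*, 15 before that of *Itgam* and 195 before that of *C1qc*. *Trem2*, which was not lower, held the short form as well, 40 bases before its start. The letters TCACATGA or TCACGTGA, which transcription factors of the lysosomal MiT/TFE family recognise, were found in 1 of the 31 windows, that of *Ctss*, and in 1.94% of all windows. The *Gpnmb* window held neither this motif nor GAGGAA.

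Complement C1q is assembled from the products of *C1qa*, *C1qb* and *C1qc*, neighbouring genes on chromosome 4 for which macrophages are a main source. *C1qa* had 4584 (control) and 2777 (iFIRKO) normalized reads, a log2 fold change of -0.72 (interval -0.82 to -0.63). *C1qb* had 4006 and 2611 (-0.62) and *C1qc* 4396 and 2842 (-0.63). The subunits kept nearly the same proportions. *C1qb* stood at 0.911 of *C1qc* in control (interval 0.858 to 0.969) and at 0.919 in iFIRKO (interval 0.851 to 0.991). For *C1qa* over *C1qb* the ratio was 1.14 (interval 1.08 to 1.22) and 1.06 (interval 0.985 to 1.15), which overlapped.

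Genes of lysosomal proteins and other effectors differed to varying extents. *Cd68*, a heavily glycosylated lysosomal membrane protein gene, had 797.0 (control) and 398.6 (iFIRKO) normalized reads, a log2 fold change of -0.99 (interval -1.25 to -0.75). *Laptm5*, a lysosomal membrane protein gene of blood cells, had 1373 and 735.9 (-0.90, interval -1.08 to -0.71). The cysteine protease gene *Ctss*, which serves antigen processing, had 3930 and 2322 (-0.76, interval -0.86 to -0.65). All of these had intervals entirely below the median of the macrophage genes. *Lyz2*, the lysozyme gene of macrophages and neutrophils, had 4746 and 3048 normalized reads (-0.64, interval -0.73 to -0.55). Its close paralog *Lyz1*, with 41.9 and 18.6 normalized reads, could share a small part of those reads. *Mpeg1*, which encodes the pore-forming protein perforin-2, differed less, with 5208 and 3728 normalized reads (-0.48, interval -0.57 to -0.40). *Aif1*, a calcium-binding actin regulator gene, had 344.8 and 225.9 (-0.60).

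Other cathepsin genes differed less than *Ctss*. Of 7 other cathepsin genes, which hepatocytes also express, 1 was called lower (background 7.29%), and their median log2 fold change was -0.17. *Ctsc*, the activator of leukocyte serine proteases, had 7013 and 4333 normalized reads (-0.69), whereas *Ctsb*, at 34169 and 30349, had a log2 fold change of -0.17, and *Ctsd*, at 13768 and 14599, one of 0.08.

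Of the antibody receptor genes and their adaptors, *Fcgr1* and *Tyrobp* were called lower, while *Fcgr3*, *Fcgr4* and *Fcer1g* fell short of the 1.5-fold limit. *Fcgr1*, the high-affinity IgG receptor gene, showed the largest fold change of all 35 genes, with 465.6 (control) and 197.3 (iFIRKO) normalized reads, a log2 fold change of -1.22 (interval -1.59 to -0.89). *Fcgr3*, a low-affinity activating receptor gene, had 637.2 and 463.8 (-0.45, interval -0.71 to -0.21), and its interval did not overlap that of *Fcgr1*. *Fcgr4* was described above. The adaptor genes encode short membrane proteins whose cytoplasmic tyrosine motif (ITAM) recruits the kinase SYK. *Tyrobp* had 1082 and 615.8 normalized reads (-0.81, interval -1.02 to -0.61), and *Fcer1g*, the common Fc receptor gamma chain gene, had 782.0 and 527.3 (-0.56, interval -0.80 to -0.34). Of 6 further genes of this pathway, 5 reached the minimum level and 5 were called lower (background 7.29%). They were *Fcgr2b*, the inhibitory receptor gene (2072 and 1286 normalized reads, -0.69), *Sirpa* (1677 and 978.5, -0.77), *Syk* (583.3 and 335.8, -0.79), *Plcg2* (214.5 and 113.8, -0.89) and *Btk* (154.7 and 95.6, -0.67). *Hcst*, at 15.5 and 13.2 normalized reads, was below the minimum.

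The phagocyte NADPH oxidase, which makes superoxide in the phagosome, was measured through its membrane and cytosolic subunits. *Cybb*, the catalytic subunit gene, had 1322 (control) and 793.4 (iFIRKO) normalized reads, a log2 fold change of -0.73 (interval -0.92 to -0.55). *Ncf1* and *Ncf4*, genes of cytosolic organizers, had 436.0 and 332.9 (-0.39, interval -0.69 to -0.09) and 153.1 and 106.5 (-0.51, interval -1.05 to 0.003), short of the 1.5-fold limit. The partner genes *Cyba* (424.5 and 277.1 normalized reads, -0.61) and *Rac2* (735.8 and 478.7, -0.62) were called lower.

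Genes for sensing and uptake completed the general group. *Cd14*, the lipopolysaccharide co-receptor gene, had 334.4 and 218.6 normalized reads (-0.60, interval -0.97 to -0.25). *Cd86*, a co-stimulatory ligand gene of antigen-presenting cells, had 291.6 and 156.2 (-0.88, interval -1.31 to -0.49). *Msr1*, another class A scavenger receptor gene, had 1059 and 677.1 (-0.64, interval -0.85 to -0.45). *Mrc1*, the mannose receptor gene, had 2276 and 1635 (-0.48, interval -0.61 to -0.35). Sinusoidal endothelial cells also express *Mrc1*. Their 8 marker genes had a median of -0.45, with 2 called lower (background 7.29%) and sums of 13073 and 9754 normalized reads. The part of endothelial transcripts in the *Mrc1* value was not tested.

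Seen against the common shift, 22 of the 35 genes had an interval that held the median of the macrophage genes (-0.62). The 7 genes with intervals entirely below it were *Fcgr1*, *Itgam*, *Cd68*, *Laptm5*, *Cd5l*, *Ctss* and *C1qa*. The 6 above it were *Cd163*, *Marco*, *Csf1r*, *Mrc1*, *Mpeg1* and *Trem2*, of which *Trem2* alone was above 0. Per kilobase of the longest coding transcript in GENCODE M21, *Cd5l* stood highest in control at 4579 normalized reads per kb (interval 4449 to 4712), followed by *C1qa* at 4408 (4230 to 4592). *C1qb*, *C1qc*, *Lyz2* and *Clec4f* came next, between 3682 and 3532 per kb, with overlapping intervals, and *Ctss* stood below them at 2901. In the iFIRKO library the 10 genes with the highest level per kb stood in the same order, except that *C1qa* (2670) and *Cd5l* (2653) changed places within overlapping intervals.

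Other genes tied to Kupffer cell identity showed a mixed picture. Of 15 such genes, 4 were called lower (background 7.29%) and 0 higher (background 4.46%), with a median log2 fold change of -0.41. *Spic*, a transcription factor gene of iron-recycling macrophages, had 176.5 and 99.6 normalized reads (-0.80, interval -1.38 to -0.32), and *Clec1b*, a C-type lectin gene, had 588.5 and 358.0 (-0.71, interval -0.99 to -0.44). The other genes called lower were *Sdc3* (5571 and 3517 normalized reads, -0.66) and *Il18bp* (1262 and 797.3, -0.66). In contrast, the regulator *Id3* (1143 and 1415, 0.31, interval 0.15 to 0.47) had more normalized reads in iFIRKO, short of 1.5-fold. *Nr1h3* (3844 and 3827), which encodes LXR-alpha, and *C6* (4452 and 4404) were near level at -0.01 and -0.02, and hepatocytes also express both.

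Genes of inflammatory activation were scarce. Of 11 such genes, 4 reached the minimum level. Those 4 were called lower (background 7.29%, and 13.7% below 10 CPM, where they lay) and 0 higher (background 4.46%). *Ccl2*, the monocyte chemoattractant gene, had 86.9 and 30.1 normalized reads (-1.41, interval -2.49 to -0.66), *Il1b* 188.7 and 119.1 (-0.65, interval -1.16 to -0.18), and *Ccl5* 45.2 and 28.3. *Chil3* rested on 40 and 25 read pairs. The intervals of *Chil3* (-1.44 to 0.10) and *Ccl5* (-1.77 to 0.32) include no difference. *Tnf*, at 17.9 and 10.1, was below the minimum, and *Nos2* was listed at 0 in both libraries.

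Markers of other leukocytes were mostly lower as well. Of 11 neutrophil genes, 3 reached the minimum and 3 were called lower (background 7.29%, and 13.7% below 10 CPM, where they lay). Their median was -1.74, and the 11 genes summed to 733.9 and 286.3 normalized reads. Among them *S100a9* had 227.5 and 64.7, while *Ly6g*, at 1.81 and 3.27, was close to 0 in both libraries. Of 11 monocyte genes, 8 reached the minimum and 4 were called lower (background 7.29%), with a median of -0.81 and sums of 3219 and 1952. *Ccr2*, the receptor gene for the *Ccl2* product, had 236.5 and 74.2 normalized reads (-1.62, interval -2.24 to -1.12), and *Plac8* had 779.0 and 368.2 (-1.07). The monocyte genes *Nr4a1* (0.02), *Ace* (-0.42), *Itgal* (-0.52) and *Treml4* (-0.58) were compared but not called. Among 7 pan-leukocyte genes, 4 were called lower (background 7.29%), with sums of 7571 and 5784 normalized reads. *Ptprc*, the common leukocyte antigen gene, had 980.3 and 514.0 (-0.93). *Lcp1*, with the most reads of this list, differed little, at 3981 and 3708 (-0.10). *Itgb2* (-0.44) and *Arhgdib* (-0.53) also fell short of the 1.5-fold limit. Several macrophage genes described here, *Lyz2*, *Itgam*, *Cybb* and *Ncf1* among them, are also expressed by neutrophils and monocytes, and the part of those cells in their values was not tested.

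**Figure D4:**
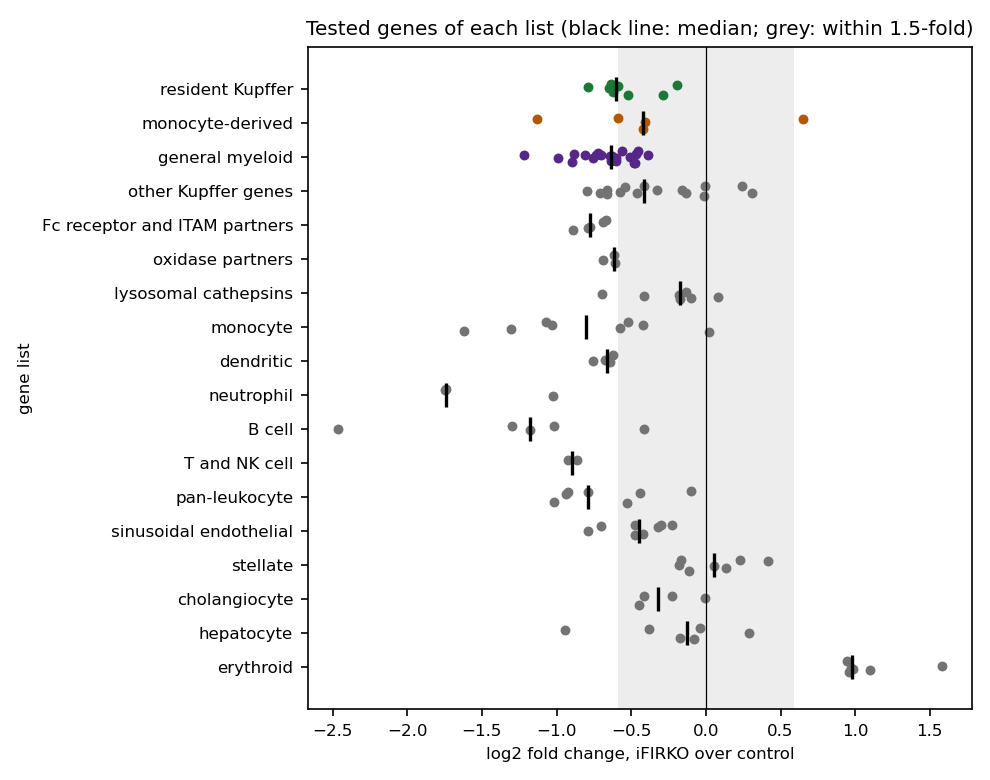
Log2 fold change (iFIRKO over control) of the genes at or above the minimum level in each gene list, with the median as a black line and the range within 1.5-fold shaded. The medians of the resident Kupffer (-0.60) and general myeloid (-0.63) groups lie left of 0 together with all other leukocyte lists shown. The sinusoidal endothelial (-0.45), cholangiocyte (-0.32) and hepatocyte (-0.13) medians lie left of 0 as well. The stellate list is near 0 (0.06) and the erythroid list lies to the right (0.98).

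Markers of other liver cells varied. The 7 stellate cell genes had a median of 0.06 and sums of 9510 and 9869 normalized reads. Of them, 0 were called (background 7.29% lower and 4.46% higher). Of 6 hepatocyte genes, 1 was called lower (*Apoa1*, background 7.29%) and the median was -0.13. Cholangiocyte genes (4, with 0 called) had a median of -0.32. All 6 erythroid genes above the minimum were called higher (background 4.46%), with a median of 0.98. Some macrophage genes overlap other annotated genes, and the authors' handling of strand and of shared reads is not given in the sources used here. *Itgam* shares 68.7% of its annotated exon bases with a same-strand gene, *Gm49368*, which is not among the deposited symbols. *Folr2* shares 63.1% with the antisense gene *Gm10602* (49.9 and 48.3 normalized reads). How reads in the shared bases were assigned is not known, so the values of *Itgam* and *Folr2* are uncertain. Smaller antisense overlaps touch *Csf1r* (15.1% of its exon bases, with *Hmgxb3*) and *Ncf1* (11.1%, with *Gtf2ird2*).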

How the data were processed

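Liver mRNA was sequenced by the authors from TruSeq stranded libraries on an Illumina instrument. For each library they deposited a log2 value for each gene symbol, made from a read count they had normalized, with 0 where that count was 1 or less. The build is mm10 per the submitters' processing notes in the labels. The aligner, counter and normalization are not given in the sources used here. Values were returned to the linear scale, and the first of duplicate rows (101) was kept. The commonest low value, 1.99 (control) and 2.01 (iFIRKO), was taken as 1 read pair. Only 44.6% of values under 20 read pairs were whole within 0.01, so the read pairs are estimates and no p-value was drawn from them. No fold change is given where either library has at most 3 read pairs. Intervals treat the rounded read pairs as binomial or Poisson counts, without the pseudocount, and are approximate to that extent. All 37 genes are named. Of other lists, some of the highest levels and largest folds are named, but not in every list. Further names were chosen after their values were seen, so the named genes are not a neutral sample of those lists. Members and lists were chosen with earlier results of these data known. Positions and transcript lengths come from GENCODE M21 (GRCm38), promoters from RefSeq (GRCm38.p6). The fold calls and intervals were tested on simulated data. Alternatives changed the pseudocount, minimum, scaling, duplicates, fold limit and members. Tools were scipy 1.17.1, numpy 2.4.6, matplotlib 3.10.9 and pandas 2.3.3, run in Python 3.11.15. Some results on single genes are not reported here.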

Additional observations from a re-analysis of the deposited data

How the results depend on the processing

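Medians and sums of the resident Kupffer and general myeloid genes stayed negative under every alternative run, and the sums stayed within their counting intervals. The sums use neither pseudocount nor minimum, so most alternatives could not move them. The genes left out for neutrophils or sinusoidal cells include no resident Kupffer gene, so that alternative could not move the resident group. The 275 values of 35 single genes under up to 8 alternatives all lay inside their counting interval, and 0 changed sign. Alternatives that changed only the minimum or summed duplicate rows left each gene's own fold change as it was. Many of the 275 values were therefore fixed in advance. The other scalings divided the iFIRKO values by 1.0073 or 1.0085, which could move a fold change only slightly. The median of all genes compared was 0.01, and -0.0031 or -0.0048 under the other scalings. The count of 22 lower genes became 2 with a limit of 2-fold and stayed within 1.5 times of 22 under the other alternatives run. The count of 1 higher gene, *Trem2*, was 0 with a pseudocount of 1 CPM, with the minimum required in both libraries, with a minimum of 5 CPM or with a limit of 2-fold, and 2 without a minimum, where *Gpnmb* enters. Without genes that neutrophils or sinusoidal cells also express, the monocyte-derived genes above the minimum were *Cx3cr1* and *Trem2* alone. The median then changed sign from -0.42 to 0.11, and the log2 ratio of the sum over the remaining genes from -0.46 to 0.15. The intervals of *Cx3cr1* and *Trem2* both include no difference, and no interval was computed for the reduced sum. No direction can be read from this change of sign. Without *Trem2* and *Gpnmb*, an alternative chosen after seeing the data, the median was -0.51 and the ratio -0.56. No paired analysis was possible because each genotype has 1 library, and for the same reason no library could be left out. Genes near 41.8 normalized reads carry the largest counting error, and variation between mice was not measured.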

Other observations

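Antigen-presenting and lymphoid markers outside the macrophage lists were also lower. Of 9 dendritic cell genes, 4 reached the minimum level and those 4 were called lower (background 7.29%, and 13.7% below 10 CPM, where they lay). Their median log2 fold change was -0.66. *Clec9a*, a lectin receptor gene of cross-presenting dendritic cells, had 164.4 (control) and 105.2 (iFIRKO) normalized reads (interval -1.18 to -0.14), and *Zbtb46*, a transcription factor gene of classical dendritic cells, had 309.3 and 196.2 (interval -1.05 to -0.29). The intervals of the other genes called, *Itgax* (-2.00 to 0.22) and *Batf3* (-1.47 to 0.03), include no difference. *Cd209a* was listed at 0 in both libraries. Of 6 B cell genes, 4 of 5 above the minimum were called lower (median -1.18), against the same backgrounds. *Cd79a* had 113.4 and 17.1 normalized reads. Of 8 T and NK cell genes, 2 reached the minimum and both were called lower, against the same backgrounds. *Thy1* had 63.9 and 33.2 normalized reads. *Gzma* had 49.7 and 24.2, and its interval (-2.17 to 0.0065) includes no difference.

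Genes of lipid handling that macrophages in lipid-rich tissue express did not share a direction. *Fabp5*, a fatty acid-binding protein gene, had 1398 and 567.5 normalized reads, a log2 fold change of -1.29 (interval -1.50 to -1.10). *Lpl*, the lipoprotein lipase gene, had 1564 and 1029 (-0.60), and *Spp1*, the osteopontin gene, had 1827 and 1606 (-0.19). *Cd9*, a tetraspanin gene, had 532.1 and 772.9 normalized reads (0.54, interval 0.31 to 0.77), more in iFIRKO but short of 1.5-fold. *Mmp12*, at 13.9 and 32.2 normalized reads, or 7 and 16 read pairs, was below the minimum like *Gpnmb*. Of the growth factor receptor genes, *Csf2ra* had 463.2 and 268.5 normalized reads (-0.78) and *Csf2rb* 657.9 and 551.5 (-0.25). Of 5 adipocyte genes, 2 reached the minimum. *Fabp4*, which endothelial cells also express, had 469.9 and 469.0 normalized reads, and *Cidec*, a lipid droplet gene that fatty hepatocytes also express, had 17.9 and 108.4 (2.35, interval 1.57 to 3.81), called higher. *Lep* was listed at 0 in both libraries, and *Adipoq* and *Plin1* were listed at 0 in control with 1 read pair each in iFIRKO.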
